A study of Oryctolagus cuniculus with 12 samples.

Results

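The genes described here are the integrins, the laminins and the collagens other than the main chains of types I and III, measured in the rabbit basilar artery after a subarachnoid hemorrhage, in which blood enters the space between the membranes that cover the brain. They were chosen by symbol: every gene whose name begins as a collagen chain, a laminin chain, an integrin alpha chain or a numbered integrin beta chain, with COL1A1, COL1A2 and COL3A1 left out. The array named 52 such genes, and 45 of them, measured by 107 probes, were above background and could be tested, out of 7371 named genes tested in all. The other 7 (COL9A2, COL11A2, COL22A1, ITGAL, ITGAX, ITGB6 and LAMA3) were below background by this rule and have no values here. ITGB1BP1 and ITGB1BP2 entered through their symbols, although they encode proteins that bind the tail of an integrin and are not integrins.

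Collagens and laminins build the extracellular matrix of an artery. Laminins and type IV collagen form the basement membrane, the thin sheet that lies under the endothelium and around each smooth muscle cell, while other collagens form fibrils, decorate fibrils or make beaded filaments and networks. Integrins are receptors made of an alpha and a beta chain that bind these proteins outside the cell and the actin skeleton inside it, and a separate group of them serves the adhesion of leukocytes to vessel walls.

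Total RNA of the basilar artery was hybridised to 12 single-colour arrays, with 3 arrays each of normal artery (control, day 0) and of artery at day 3, day 5 and day 7 of experimental subarachnoid hemorrhage. The labels give no strain, age, sex or way of making the hemorrhage, and do not give the number of animals behind the 3 samples per group, so p-values measure the spread between these samples only. Each replicate number was 1 slide holding 1 array of every group, and since the place of a group's array was the same on every slide, place and group cannot be told apart. A level below is the log2 of a probe's signal relative to the 75th percentile of its array, and levels of different probes are not comparable.

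The share of spots well above background ran from 50.1% to 64.0%, the lowest on control replicate 2, which also had the most outlier spots (169, against 1 to 16 on the other arrays). Contractile smooth muscle markers, the defining genes of the arterial wall, were measured for 10 of 11 genes and their summed signal, in multiples of the array's 75th percentile, was between 743 and 849 on day 3, between 716 and 892 on day 5 and between 768 and 959 on day 7, against 1070 to 1247 in control. The 6 macrophage markers measured, of 12 listed, had sums between 21.6 and 27.6 on day 3, between 25.9 and 38.3 on day 5 and between 23.0 and 29.3 on day 7, against 7.82 to 13.3 in control. Of 9 neural and glial markers listed, 1 was measured, SYT1. The rest were not named on the array or not above background, and have no values here. In whole arteries, fewer cells of a type and less RNA per cell cannot be told apart.

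On day 3, 7 of the 45 genes passed the test: COL6A5, COL6A6, ITGA2 and ITGB2 rose, and COL8A2, ITGA6 and ITGB8 fell. That is 15.6% of them, where 6.89% of all named genes tested were called on day 3 (limma, Benjamini-Hochberg adjusted p under 0.05 over all probes tested). By direction, 8.89% rose, where 4.83% of all genes did, and 6.67% fell, where 2.06% did. On day 5, COL6A5 and ITGB2 were higher (4.44% of the genes, where 2.13% of all genes were called and 1.91% called higher), and on day 7 ITGA6 was lower (2.22% of the genes, where 2.56% of all genes were called and 0.583% called lower). The median log2 change was 0.21 on day 3, 0.06 on day 5 and 0.14 on day 7, and over all genes it was -0.01, 0.02 and 0.03.

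The day 3 arrays did not overlap the control arrays for 17 of all 45 genes, called ones included (37.8%, with 13 higher and 4 lower), where 25.1% of all genes did not overlap, 13.7% higher and 11.5% lower. An unadjusted p under 0.05 on day 3 was reached by 21 of the 45 genes and by 21.7% of all genes. The counts without overlap were 8 on day 5 (17% of all genes) and 10 on day 7 (23.2% of all genes). The calls of days 5 and 7 turned on which arrays were used: leaving out each of the 12 arrays in turn left 0 to 2 calls on day 5 and 0 to 4 on day 7, and 4 to 9 on day 3.

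**Figure D1:**
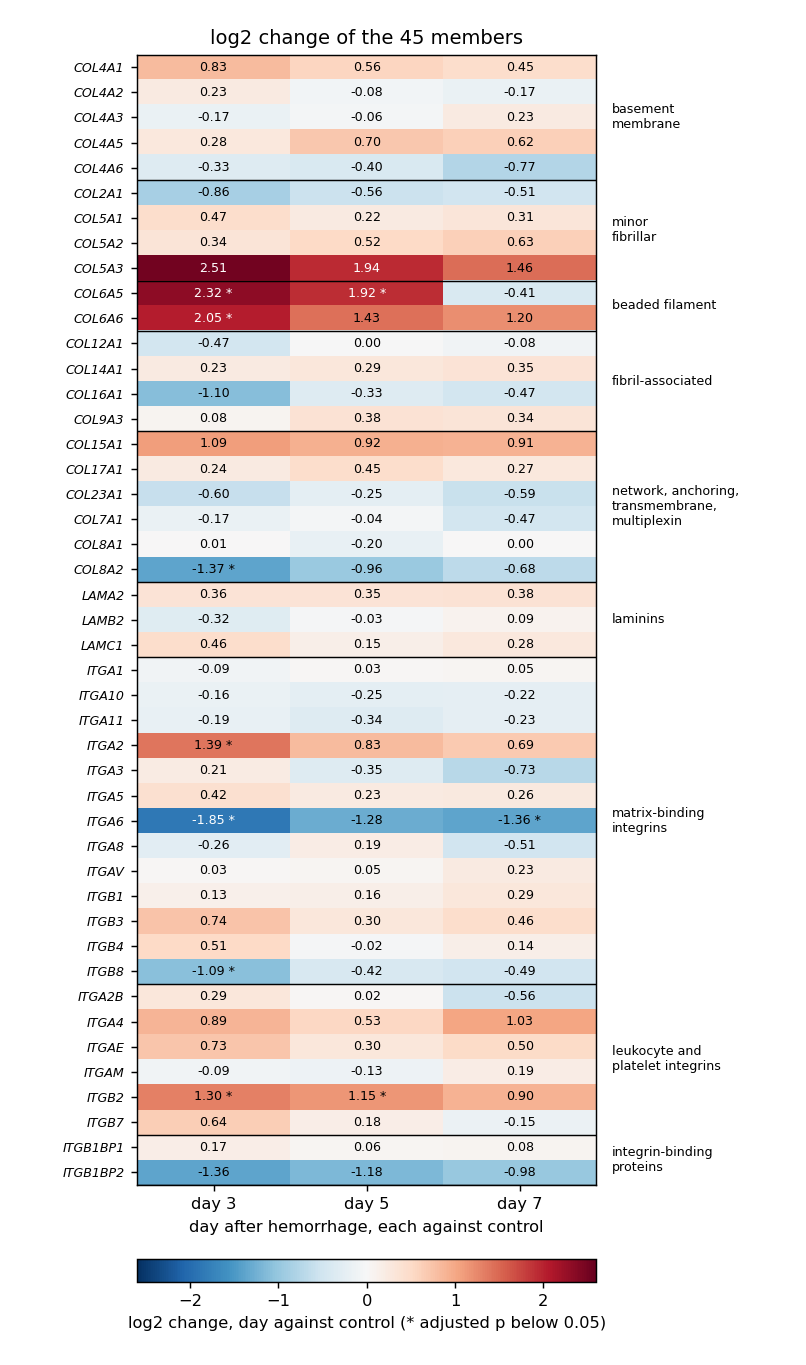
log2 change of each of the 45 genes (rows, grouped by role) on day 3, day 5 and day 7, each against control; colour and number give the change, and a star marks an adjusted p below 0.05. The 7 starred cells of day 3 lie in 4 of the groups, and the basement membrane, minor fibrillar and fibril-associated collagens and the laminins hold none on any day.

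Both beaded filament collagens measured rose on day 3. COL6A5 encodes a chain of type VI collagen, which forms beaded filaments near basement membranes, and the array described it by its older name, type XXIX alpha 1. Its level was -6.33, -4.95 and -6.30 on the control arrays, -3.75, -4.24 and -2.64 on day 3, -3.59, -4.21 and -4.02 on day 5 and -6.18, -6.07 and -6.55 on day 7. Every day 3 and day 5 array was above every control array, while the day 7 arrays overlapped the controls.

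COL6A5 was dim: its probe was well above background on 2 of 3 arrays on day 3, all 3 on day 5 and 0 on day 7, against 0 of 3 in control. The measured means were -3.54 ± 0.82 on day 3 and -5.86 ± 0.79 in control (SD, n = 3 each), a log2 change of 2.32 (SE 0.43, limma adjusted p = 0.00946). Because no control array and only 2 of the 3 day 3 arrays measured it, the size of the change in fold is not known. The log2 differences on the 3 slides were 2.58, 0.71 and 3.66, and the gene stayed called on day 3 whichever array was left out (log2 change 1.87 to 2.77). A background correction that adds a constant to every signal (normexp, offset 50) gave 0.22 (adjusted p = 0.688).

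On day 5 COL6A5 averaged -3.94 ± 0.32, against -5.86 ± 0.79 in control, a log2 change of 1.92 (adjusted p = 0.0455) with no fold that can be bounded. The probe entered the test only through day 5, the group in which all 3 arrays measured it, so this p is not independent of that choice. The call was lost when the slide entered as a block (adjusted p = 0.0774), under normexp (0.66, adjusted p = 0.152), with no filter on dim probes (adjusted p = 0.0917) and without any one of 9 arrays: control replicates 1 and 3, day 3 replicate 1, and every day 5 and day 7 array (adjusted p 0.0627 to 0.158). On day 7 the log2 change was -0.41 (adjusted p = 0.663).

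COL6A6, another chain of the same collagen family, was measured by 3 tested probes. On the brightest of them the level was -6.24, -4.94 and -4.02 on the control arrays, -3.37, -2.83 and -2.85 on day 3, -3.75, -3.19 and -3.95 on day 5 and -3.26, -3.80 and -4.52 on day 7. All day 3 and day 5 arrays were above the controls, whereas day 7 overlapped them. The day 3 mean was -3.02 ± 0.31, against -5.06 ± 1.12 in control (SD, n = 3 each), a log2 change of 2.05 (SE 0.48, limma adjusted p = 0.0301). No control array was well above background, while all 3 day 3 arrays were. The probe entered the test only through days 3 and 5, where all 3 arrays measured it. This p is therefore not independent of that choice. Because no control array measured it, the size of the change in fold is not known. On control replicate 2 the dimmest signal well above background was -2.66, which is above every day 3 value of this probe. Another tested probe read higher on control replicate 2 than on any day 3 array, and normexp gave a log2 change of 0.34 for the probe used.

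The COL6A6 probes are shown because they read nearly the same stretch of the transcript yet gave different values. Capitals mark the glycine codons (GGN) that recur with 2 codons between them, the signature of a collagen triple helix; 8 of the 51 probes for these collagens carried such a run, from 4 genes. The array's own probe sequences, 5′ to 3′, begin 0, 2 and 4 bases upstream of the brightest probe.
COL6A6, brightest probe: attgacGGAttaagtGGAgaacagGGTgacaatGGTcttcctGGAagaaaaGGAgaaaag
COL6A6, 2 bases upstream: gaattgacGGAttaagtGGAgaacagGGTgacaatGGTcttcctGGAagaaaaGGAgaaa
COL6A6, 4 bases upstream: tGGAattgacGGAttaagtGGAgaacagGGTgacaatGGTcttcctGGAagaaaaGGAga

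For COL6A6, the log2 change on day 3 was 2.05 on the brightest probe, 1.27 (adjusted p = 0.600) on the probe 2 bases upstream and 3.07 on the probe 4 bases upstream. That last probe was well above background on all 3 day 3 arrays and on no other, so it entered the test only through day 3, and its change has no measured control level behind it. The middle one, which also entered only through day 3, read -1.53 on control replicate 2, above every day 3 array. It read -6.24 and -6.16 on the other controls. The third read -1.13 on day 3 replicate 1 and -3.41 and -3.30 on the other day 3 arrays. The COL6A6 call was lost with the mean of its probes (2.13, adjusted p = 0.0733), with normexp (0.34, adjusted p = 0.371), with no filter on dim probes (adjusted p = 0.0675), and without control replicate 1 (1.46, adjusted p = 0.0731), control replicate 2 (adjusted p = 0.0625), day 3 replicate 2 (adjusted p = 0.0894) or day 3 replicate 3 (adjusted p = 0.105).

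**Figure D2:**
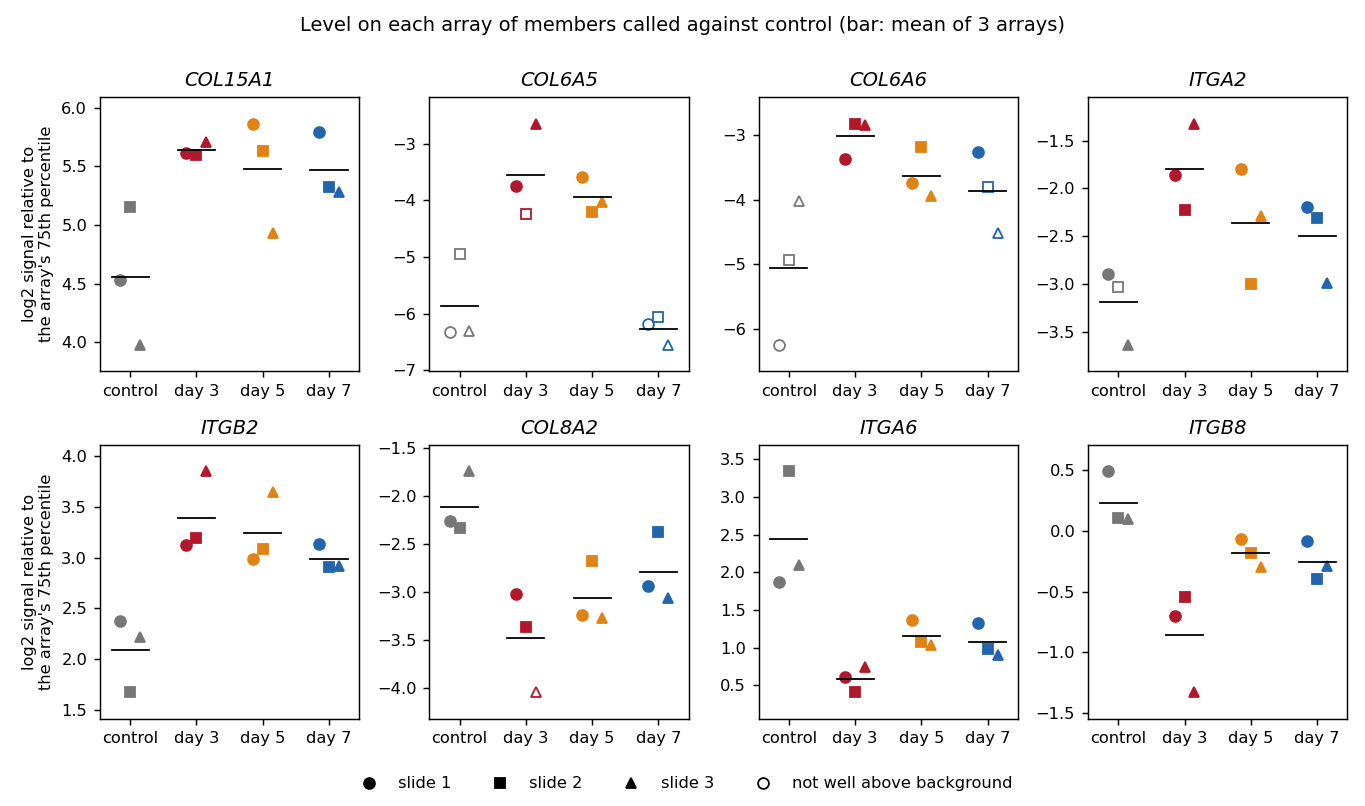
Level of the 8 genes called on a day, or over the mean of the 3 days, against control; each point is 1 array (shape: slide; open: not well above background), the bar is the mean of 3 arrays and the y axis is the log2 signal relative to the array's 75th percentile. Every day 3 array lies above the controls for COL15A1, COL6A5, COL6A6, ITGA2 and ITGB2 and below them for COL8A2, ITGA6 and ITGB8.

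Among the network-forming and basement membrane zone collagens, COL8A2 fell on day 3 and COL15A1 rose over the mean of the 3 days. COL8A2 encodes a chain of type VIII collagen, a short network collagen made by vascular cells. Its level was -2.26, -2.33 and -1.74 on the control arrays, -3.03, -3.37 and -4.05 on day 3, -3.25, -2.69 and -3.28 on day 5 and -2.94, -2.37 and -3.07 on day 7. No array of the 3 days reached the controls, and day 3 had the lowest mean, with replicate 3 (-4.05) not well above background. On day 3 it averaged -3.48 ± 0.52, against -2.11 ± 0.32 in control (SD, n = 3 each), 2.58-fold lower (log2 change -1.37, SE 0.29, limma adjusted p = 0.0191).

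The COL8A2 call was lost with normexp (-0.54, adjusted p = 0.111), and when control replicate 3 (adjusted p = 0.0515) or day 3 replicate 3 (-1.09, adjusted p = 0.0734) was left out. Its partner chain COL8A1 had a log2 change of 0.01 on day 3 (adjusted p = 0.979), with 8.03, 8.13 and 7.89 on day 3, against 8.02, 8.23 and 7.75 in control.

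COL15A1 encodes a collagen that carries sugar chains and links basement membranes to the fibrils beside them. Its level was 4.54, 5.15 and 3.98 on the control arrays, 5.62, 5.60 and 5.71 on day 3, 5.86, 5.63 and 4.93 on day 5 and 5.79, 5.32 and 5.28 on day 7. Day 3 and day 7 lay above the controls, and day 5 replicate 3 lay among them. Over the mean of the 3 days it was 1.96-fold higher (log2 change 0.97, SE 0.25, limma adjusted p = 0.0377). On day 3 the probe used missed the threshold (log2 change 1.09, adjusted p = 0.0545), while its other 4 probes passed it, with changes of 1.13 to 1.16 (adjusted p 0.0446 to 0.0493). The mean of all its probes also passed (1.14, adjusted p = 0.0497). The used probe passed in a fit blocked by slide (adjusted p = 0.0371), with array weights (1.04, adjusted p = 0.0227) and with normexp (adjusted p = 0.0353). It also passed in the fits that left out control replicate 2 (1.38, adjusted p = 0.0213) or day 5 replicate 3 (adjusted p = 0.0346). Over the fits that left out 1 array the used probe ran from 0.80 to 1.38 and was called in 2 of 12. The remaining genes of this group (COL7A1, COL17A1 and COL23A1) had day 3 changes of -0.60 to 0.24 and no call on any day; the probe assigned to COL17A1 was described on the array as a macrophage receptor with collagenous structure.

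No basement membrane collagen passed the test. COL4A1 and COL4A2 encode the chains that make up type IV collagen in most vessels. COL4A1 read 3.05, 2.73 and 2.85 on day 3, against 2.29, 2.41 and 1.45 in control, without overlap (log2 change 0.83, SE 0.25, limma adjusted p = 0.0739), and it passed in the fit blocked by slide (adjusted p = 0.0324). COL4A2 read 3.39, 3.11 and 3.69 on day 3, against 3.52, 3.45 and 2.51 in control (0.23, adjusted p = 0.684), with groups that overlapped. COL4A5 had its largest change on day 5 (0.70, adjusted p = 0.424). Of the 5 genes of this group, 1 had an unadjusted p under 0.05 on day 3, a share close to that of all genes (21.7%), and their median change that day was 0.23.

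The minor fibrillar collagens, which join the main fibrils of the wall, also had no call. COL5A3, a chain of type V collagen, had a day 3 change of 2.51 on the log2 scale (SE 0.71, limma adjusted p = 0.0595). It read -1.04, -1.01 and 1.04 on day 3, against -2.87, -1.34 and -4.34 in control. The groups did not overlap, but control replicate 3 was not well above background, and the differences on the slides were 1.83, 0.33 and 5.38. The change was 3.27 without control replicate 2 (adjusted p = 0.0186), 1.77 without control replicate 3, 1.83 without day 3 replicate 3 (adjusted p = 0.217) and 0.99 with normexp (adjusted p = 0.106). COL5A1 read 5.90, 5.80 and 5.86 on day 3, against 5.44, 5.53 and 5.20 in control, a small shift without overlap (0.47, SE 0.15, adjusted p = 0.101). COL2A1, the cartilage fibril collagen, and COL5A2 changed by -0.86 and 0.34 on day 3. Of the 4 genes, 3 had an unadjusted p under 0.05 on day 3, where 21.7% of all genes did.

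Of 4 fibril-associated collagens, which sit on the surface of fibrils, none was called. On day 3, 2 of them had an unadjusted p under 0.05, where 21.7% of all genes did. COL16A1 read -0.46, -0.99 and -0.80 on day 3, against 0.97, 0.57 and -0.47 in control, where replicate 3 overlapped the day 3 arrays (log2 change -1.10, SE 0.31, limma adjusted p = 0.0591). Leaving out 1 array moved it between -1.52, without control replicate 3 (adjusted p = 0.00478), and -0.80, and normexp gave -0.84 (adjusted p = 0.0478). COL12A1 changed by -0.47 on day 3 (adjusted p = 0.167) and by -0.08 on day 7. COL14A1 and COL9A3 had changes of 0.08 to 0.38 over the 3 days.

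The 3 laminin chains above background had no call on any day, and none had an unadjusted p under 0.05 on day 3. LAMA2, the alpha chain of the laminin in muscle basement membranes, read 2.95, 2.76 and 2.57 on day 3, against 2.63, 2.51 and 2.04 in control (0.36, limma adjusted p = 0.263). LAMC1, the gamma chain shared by most laminins, read 0.19, 0.18 and 0.07 on day 3, against -0.03, -0.02 and -0.91 in control (0.46, adjusted p = 0.386). LAMB2 changed by -0.32 on day 3 (adjusted p = 0.279) and by 0.09 on day 7. The array described its probe as laminin gamma 1, formerly LAMB2, so which chain it reads is uncertain. A second LAMB2 probe changed by -0.58 on day 3 (adjusted p = 0.192) and by -0.66 on day 7 (adjusted p = 0.189). No probe was named LAMB1.

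Among the matrix-binding integrins, 3 of 13 genes were called on day 3, where 6.89% of all genes were. ITGA6 and ITGB8 fell and ITGA2 rose. ITGA6 encodes an alpha chain of laminin receptors, which pairs with the chains of ITGB1 or ITGB4. Its level was 1.87, 3.34 and 2.10 on the control arrays, 0.61, 0.41 and 0.75 on day 3, 1.36, 1.07 and 1.03 on day 5 and 1.33, 0.99 and 0.90 on day 7. All 9 arrays after the hemorrhage were below all controls, with day 3 the lowest and control replicate 2 the highest.

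ITGA6 averaged 0.59 ± 0.17 on day 3, against 2.44 ± 0.79 in control (SD, n = 3 each), 3.60-fold lower (log2 change -1.85, SE 0.31, limma adjusted p = 0.0061). The differences on the slides were -1.26, -2.93 and -1.35, and the call held without control replicate 2 (-1.40, adjusted p = 0.00271) and in the other 11 fits that left out 1 array. Of its 5 probes 4 were called on day 3, with changes of -1.85 to -1.24, and the fifth missed the threshold (adjusted p = 0.0512). On day 5 the change was -1.28 (adjusted p = 0.0678). ITGA6 was called on day 5 with normexp (-1.28, adjusted p = 0.0399) and without control replicate 1 (-1.57, adjusted p = 0.0419). On day 7 the change was -1.36 (adjusted p = 0.0494), a call on 1 of the 5 probes, whose changes ran from -1.36 to -0.61. That day 7 call was lost in the fit blocked by slide (adjusted p = 0.0609), with no filter on dim probes (adjusted p = 0.114), with quantile normalization (adjusted p = 0.0572), with the authors' value table (adjusted p = 0.0553), with the mean of the probes (-0.83, adjusted p = 0.0540), and when any 1 of the 9 arrays of days 3, 5 and 7 was left out (adjusted p 0.0584 to 0.156).

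Neither beta partner of ITGA6 was called on any day. ITGB4 read 1.92, 2.03 and 1.93 on day 3, against 1.41, 1.09 and 1.83 in control (0.51, limma adjusted p = 0.143), and was called without control replicate 3 (0.71, adjusted p = 0.0372), while without control replicate 2 it was 0.34 (adjusted p = 0.347). ITGB1, the beta chain that most matrix-binding alpha chains share, read 7.98, 7.78 and 7.92 on day 3, against 7.61, 7.73 and 7.96 in control (0.13, SE 0.14, adjusted p = 0.663). A further 11 probes that the array describes in words as integrin beta 1, without a symbol, had day 3 changes of -0.12 to 0.05 and no call.

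ITGB8 encodes a beta chain that pairs with the chain of ITGAV and helps to release active TGF-beta from its latent form. Its level was 0.49, 0.11 and 0.10 on the control arrays, -0.70, -0.54 and -1.33 on day 3, -0.07, -0.18 and -0.30 on day 5 and -0.08, -0.40 and -0.28 on day 7. All later arrays were below all controls, and day 3 lay below days 5 and 7 as well. On day 3 it averaged -0.86 ± 0.42, against 0.23 ± 0.22 in control (SD, n = 3 each), 2.13-fold lower (log2 change -1.09, SE 0.21, limma adjusted p = 0.0114). All 3 probes were called on day 3, with changes of -1.19 to -1.09, and the call held in all 12 fits that left out 1 array. On days 5 and 7 the changes were -0.42 (adjusted p = 0.405) and -0.49 (adjusted p = 0.251). ITGAV itself changed by 0.03 on day 3 (SE 0.18, adjusted p = 0.944), and its other 5 probes by 0.33 to 0.45, with no call on any of the 6.

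ITGA2 encodes the alpha chain of a collagen receptor. Its level was -2.89, -3.04 and -3.64 on the control arrays, -1.86, -2.22 and -1.32 on day 3, -1.79, -3.00 and -2.29 on day 5 and -2.20, -2.32 and -2.99 on day 7. Day 3 was above the controls, and days 5 and 7 overlapped them. On day 3 it averaged -1.80 ± 0.45, against -3.19 ± 0.39 in control (SD, n = 3 each), 2.62-fold higher (log2 change 1.39, SE 0.35, limma adjusted p = 0.0373). Control replicate 2 was not well above background, so the fold rests partly on an unmeasured control value. The probe entered the test only through the days after the hemorrhage, so this p is not independent of that choice. The second probe, well above background on all 12 arrays, gave 0.50 (adjusted p = 0.584). It read -1.70 on control replicate 2, above every day 3 array (-2.39, -2.86 and -2.10). The call was lost with the mean of both probes (0.94, adjusted p = 0.152), with array weights (1.06, adjusted p = 0.116), with normexp (0.32, adjusted p = 0.499), with no filter on dim probes (adjusted p = 0.0829) and without any 1 of control replicates 1, 2 and 3, day 3 replicates 1 and 3 and day 7 replicate 2 (adjusted p 0.0534 to 0.148).

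ITGA5, the alpha chain of the main fibronectin receptor, gave different answers on its 2 probes. The probe used read 0.82, 0.96 and 1.24 on day 3, against 0.38, 0.61 and 0.77 in control (0.42, limma adjusted p = 0.165), and the other gave 1.04 (adjusted p = 0.0391). The other matrix-binding integrins had day 3 changes of -0.26 to 0.74, with ITGA1, a collagen and laminin receptor of smooth muscle, at -0.09 (adjusted p = 0.864) and ITGB3, which the array describes as platelet glycoprotein IIIa, at 0.74 (adjusted p = 0.199).

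**Figure D3:**
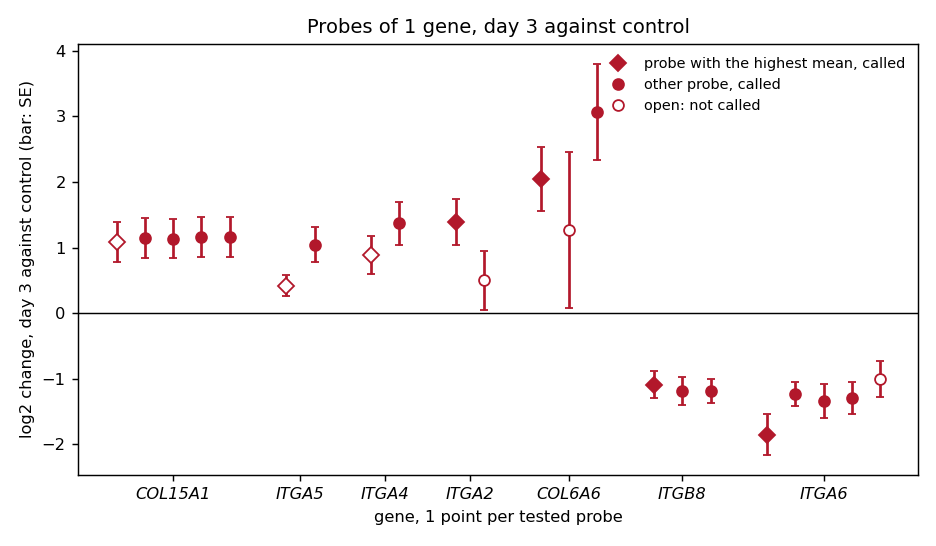
log2 change on day 3 against control for each tested probe of 7 genes that have several (1 point per probe, bar: SE; diamond: the probe used for the gene, circle: another probe; filled: adjusted p below 0.05). The probes of COL15A1 run from 1.09 to 1.16 and those of ITGB8 from -1.19 to -1.09, whereas those of COL6A6 run from 1.27 to 3.07.

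Of 6 leukocyte and platelet integrins, 5 had a change above 0 on day 3. Only ITGB2 was called that day, where 6.89% of all genes were. ITGB2 encodes the beta chain common to the main integrins of leukocytes. Its level was 2.38, 1.68 and 2.22 on the control arrays, 3.12, 3.20 and 3.85 on day 3, 2.99, 3.09 and 3.65 on day 5 and 3.14, 2.91 and 2.92 on day 7. All 9 arrays after the hemorrhage were above all controls. On day 3 it averaged 3.39 ± 0.40, against 2.09 ± 0.37 in control (SD, n = 3 each), 2.46-fold higher (log2 change 1.30, SE 0.25, limma adjusted p = 0.0126), and the call held in all 12 fits that left out 1 array. On day 5 it was 2.22-fold higher (1.15, adjusted p = 0.0434) and on day 7 1.87-fold higher (0.90, adjusted p = 0.0924).

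The day 5 call of ITGB2 was lost with normexp (0.90, adjusted p = 0.120), with no filter on dim probes (adjusted p = 0.0930) and without any 1 array other than day 3 replicate 3 (adjusted p 0.0539 to 0.129). Of 6 macrophage markers, 4 were called higher on each of the 3 days (CD68, CD14, MSR1 and MRC1). The summed level of the 6 did not overlap the controls on any day. CTSS and CD74 were not called, with changes of 1.12, 1.25 and 1.23 and of 0.11, 0.42 and -0.45 on days 3, 5 and 7. The median change of the markers was 1.41, 1.82 and 1.77 on these days, where ITGB2 changed by 1.30, 1.15 and 0.90. None of 6 T and NK cell markers and none of 4 neutrophil markers was called on any day. On day 3, 2 and 0 of them had an unadjusted p under 0.05, where 21.7% of all genes did. Of 2 B cell markers, CD79B was called higher on day 3 (1.80, limma adjusted p = 0.00708), and MS4A1 was not called (0.07, adjusted p = 0.891). The part of these cells in the level of ITGB2 was not tested.

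**Figure D4:**
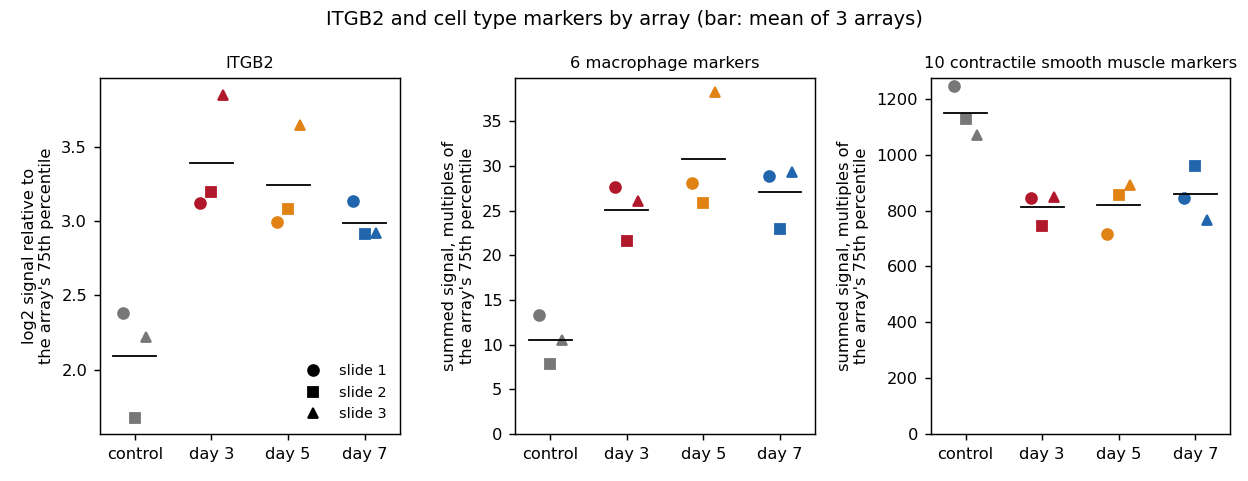
Level of ITGB2 (left, log2 signal relative to the array's 75th percentile) beside the summed signal of 6 macrophage markers (middle) and of 10 contractile smooth muscle markers (right), both in multiples of the array's 75th percentile; each point is 1 array (shape: slide) and the bar is the mean of 3. After the hemorrhage all arrays lie above the controls for ITGB2 and the macrophage markers and below them for the smooth muscle markers.

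None of the other 5 leukocyte and platelet chains was called on any day. On day 3, 3 of them had an unadjusted p under 0.05, where 21.7% of all genes did. ITGA4, an alpha chain that binds VCAM1 on inflamed endothelium, read -2.58, -2.87 and -2.12 on day 3, against -3.71 and -3.11 in control, where replicate 2 was an outlier spot and was left out of the fit (0.89, limma adjusted p = 0.108). On both of its probes 1 of 3 control arrays was well above background. In the fit blocked by slide it was called on day 3 (0.91, adjusted p = 0.0398) and on day 7 (1.05, adjusted p = 0.0405), and its second probe was called on day 3 (1.37, adjusted p = 0.0324). With normexp it changed by 0.12 on day 3 (adjusted p = 0.861) and by 0.31 on day 7 (adjusted p = 0.678). ITGAE, the alpha chain of a lymphocyte receptor for E-cadherin, read -0.80, -0.48 and -0.80 on day 3, against -1.59, -1.45 and -1.22 in control, without overlap (0.73, adjusted p = 0.110), and was called without day 5 replicate 3 (adjusted p = 0.0478). ITGAM, the myeloid alpha chain that pairs with ITGB2, changed by -0.09 on day 3 (adjusted p = 0.916), and ITGB7 and ITGA2B by 0.64 and 0.29.

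The integrin-binding proteins had no call on any day. An unadjusted p under 0.05 on day 3, which 21.7% of all genes had, was reached by 1 of them, ITGB1BP2. It is a muscle protein that binds the tail of integrin beta 1 and read -0.70, -0.88 and -0.35 on day 3, against -0.12, 2.61 and -0.32 in control. Its change of -1.36 (SE 0.59, limma adjusted p = 0.210) came down to -0.42 without control replicate 2 (adjusted p = 0.350). ITGB1BP1 changed by 0.17 on day 3 (adjusted p = 0.577).

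Compared with each other, the days differed for 1 of the 45 genes: COL6A5 was lower on day 7 than on day 3 (log2 change -2.72, SE 0.43, limma adjusted p = 0.0467), where 0.109% of all genes were called and 0.095% called lower. It averaged -6.27 ± 0.25 on day 7 and -3.54 ± 0.82 on day 3 (SD, n = 3 each), with no day 7 array and 2 of 3 day 3 arrays well above background, so no fold is given. Day 5 against day 3 and day 7 against day 5 had 0 calls among the 45 genes and 0% among all genes, with 4 and 2 of the 45 at an unadjusted p under 0.05, where 7.52% and 1.75% of all genes were. The mean of the 3 days against control called 6 genes (13.3% of them, where 7.56% of all genes were called, 5.28% higher and 2.28% lower): COL15A1, COL6A6 and ITGB2 higher, and COL8A2, ITGA6 and ITGB8 lower. The F test for any day against control called COL6A5, ITGA6 and ITGB2, where 3.27% of all genes were called. COL6A5 entered the test only through day 5 and the COL6A6 probe only through days 3 and 5, where they were high. Their p-values for the mean of the 3 days and the F test are not independent of that choice.

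Genes that act with these matrix proteins and receptors were followed in 3 lists. Over all genes, 4.83% were called higher and 2.06% lower on day 3, 2.13% were called on day 5 and 2.56% on day 7. Of 21 measured genes of integrin adhesion and signalling, 2 rose on day 3: CIB1, which binds calcium and integrin tails (0.86, SE 0.20, limma adjusted p = 0.0251), and the GTPase RHOA (0.53, adjusted p = 0.0423). TLN2, a talin that links integrins to actin, fell by 0.75 on the log2 scale on day 3 (adjusted p = 0.0253), and PTK2, the focal adhesion kinase, fell by 0.79 on day 5 (adjusted p = 0.0284). The list had 0 calls on day 7, with 6 genes at an unadjusted p under 0.05, where 19.3% of all genes were. Its median change was -0.29 on day 3, -0.29 on day 5 and -0.31 on day 7.

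Of 21 measured basement membrane partners and adhesive glycoproteins, 4 were called on day 3. TNN, a tenascin (1.67, limma adjusted p = 0.00504), and TGFBI, a matrix protein that integrins bind (1.02, adjusted p = 0.0129), rose; SMOC2, a calcium-binding matrix protein (-1.10, adjusted p = 0.0300), and FBLN5, a fibulin of elastic fibres that integrins bind (-0.95, adjusted p = 0.0441), fell. TGFBI was also higher on day 5 (1.35, adjusted p = 0.00538) and day 7 (1.01, adjusted p = 0.0259), the list's call on each of those days. Its median change was 0.17 on day 3, 0.13 on day 5 and 0.16 on day 7.

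Of 18 measured genes of collagen synthesis and processing, 4 rose on day 3 and none fell. They were PPIB, a prolyl isomerase of the collagen-folding machinery (0.77, limma adjusted p = 0.0243), PCOLCE2, which enhances the trimming of procollagen (1.39, adjusted p = 0.0108), CREB3L1, a transcription factor of secretory cells (1.43, adjusted p = 0.0191), and CTSK, a protease that cuts collagen (0.85, adjusted p = 0.0490). CREB3L1 was the list's call on day 5 (2.01, adjusted p = 0.00630) and on day 7 (1.60, adjusted p = 0.0221). Its median change was 0.41 on day 3, 0.24 on day 5 and 0.28 on day 7.

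**Figure D5:**
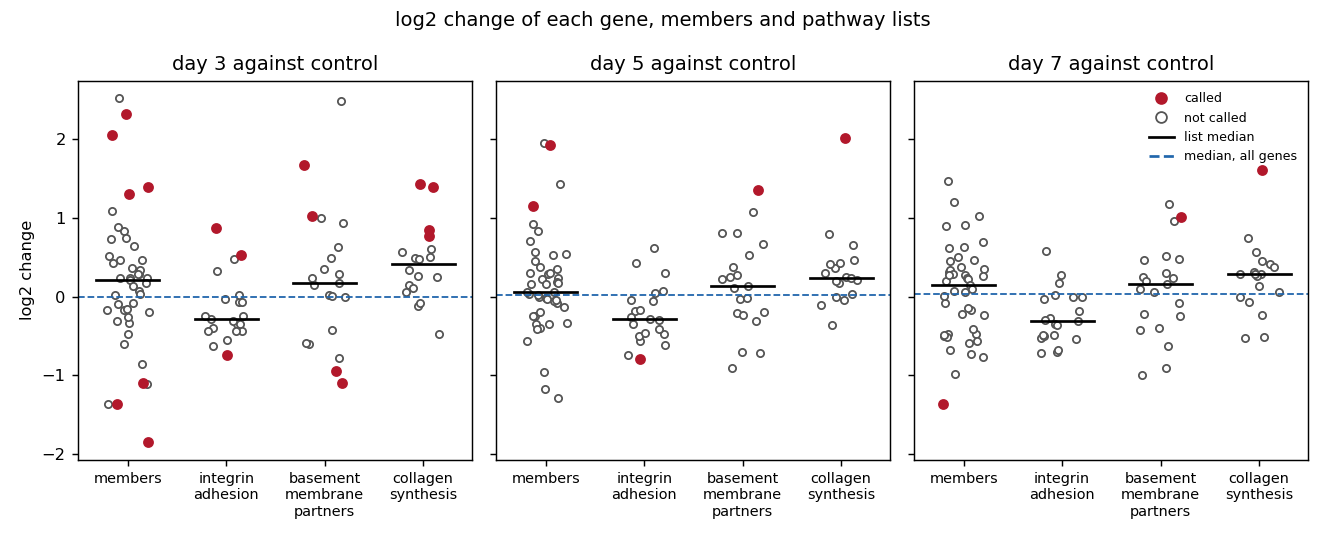
log2 change against control on day 3, day 5 and day 7 for the 45 genes ("members") and the genes of the 3 lists; each point is 1 gene (filled: adjusted p below 0.05), placed sideways at random, the black bar is the median of the list and the dashed line the median of all genes. The integrin adhesion list has its median below that line on every day and the collagen synthesis list above it.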

How the data were processed

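The series holds Agilent Feature Extraction files (version 9.5.1.1, per the submitters' processing notes), as the authors deposited them. The processed signal in them is a Cy3 intensity, background-subtracted and detrended within its array, per the file headers; mean and local background signals are raw intensity values. Flags for spots well above background, outliers and saturation are of the kind other, 0 or 1, as deposited. The value table that the authors deposited is an intensity on a linear scale with the same median (27.0) in all 12 columns; its log2 values followed the processed signals (lowest r 0.994), and how it was normalized is not given in the sources used here.

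Signals were scaled as log2 relative to the array's 75th percentile, outlier spots were set to missing, and 26431 of 43623 probes were tested, those that at least 1 group measured well above background on each of its 3 arrays. Probes were named from the array's accessions and descriptions through RefSeq's table of assembly mOryCun1.1: 22977 had 1 gene, 125 several and 20521 none. The array gives no build, so no coordinates are given. A gene is its tested probe with the highest mean. All 12 arrays entered 1 fit with limma 3.58.1 (R 4.3.3), two-sided and without a block, and p-values were adjusted over all tested probes; the fit was tested on simulated data. The named genes are COL6A5, all called members, up to 2 uncalled members per role with the smallest p, fixed members (ITGB1, ITGAV, COL4A1, COL4A2, LAMB1, LAMC1) and up to 4 called genes per list; other genes stand as counts, ranges or background. The members and lists were chosen with earlier results of these data known. Same-numbered arrays share a slide per the file headers; their deviations correlated from -0.15 to 0.39 (median 0.11, 10 of 18 pairs over 0.1), so the slide as a block was an alternative, beside normexp, quantile normalization, the authors' table, array weights, other filters, the mean of a gene's probes and leaving out each array. Markers of B cells and erythroid, endothelial, fibroblast and proliferating cells were also listed.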

Additional observations from a re-analysis of the deposited data

Results flagged for a closer look

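COL6A5 was the only one of the 45 genes called between days, with a log2 change of -2.72 on day 7 against day 3. It was singled out because the test of the difference between days itself passed the threshold. Its probe was well above background on 5 of 12 arrays. The call was absent with the slide as a block, with no filter on dim probes and with normexp, and leaving out 1 array left 0 to 1 calls.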

How the results depend on the processing

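Counts of called genes among the members were recomputed under each alternative. The share of all genes called under the same alternatives is not given here. A change in these counts therefore cannot be told apart from a change in calls over the whole array. On day 3 (7 calls) array weights gave 12, and the fits without 1 array gave 4 to 9. Normexp, no filter on dim probes and the filter on all 12 arrays gave 5 each. No filter lost COL6A6 and ITGA2. Normexp and the filter on all 12 arrays both lost COL6A5, COL6A6, COL8A2 and ITGA2 and gained COL15A1 and COL16A1. Of the 7 genes, ITGA6, ITGB2 and ITGB8 stayed called in both. On day 5 (2 calls) array weights gave 4, no filter on dim probes 0, normexp 1, a filter that asks for all 12 arrays 1 and the slide as a replicate block 1, with 0 to 2 without 1 array. Normexp lost both COL6A5 and ITGB2 on day 5, and its call was ITGA6, lower (-1.28, limma adjusted p = 0.0399). On day 7 (1 call) array weights gave 4, and the authors' value table, the mean of a gene's probes, no filter and quantile normalization gave 0 each, with 0 to 4 without 1 array; the slide block gave 1, with ITGA4 in place of ITGA6. For day 7 against day 3 (1 call) no filter, normexp, the slide block and the filter on all 12 arrays gave 0, with 0 to 1 without 1 array. For the mean of the 3 days (6 calls) no filter gave 2 and normexp 3, with 2 to 5 without 1 array. For the F test (3 calls) array weights gave 7, no filter 1 and normexp 1, with 1 to 4 without 1 array. Day 5 against day 3 and day 7 against day 5 stayed at 0. The slide block on day 3 gave 10 calls, which held all 7 and added COL15A1, COL4A1 and ITGA4; counting any called probe of a gene, chosen after seeing the data, gave 10 as well. The filter on all 12 arrays cannot hold COL6A5, COL6A6, COL8A2 or the ITGA2 probe used, which were measured on fewer arrays; the cause of the other changes was not tested. Over the 27 named genes no called value changed sign under any alternative. Precision is limited by 3 arrays per group, and for COL6A5 and COL6A6 by signals near background.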

Other observations

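Other cell type markers were measured on the same arrays. Of 6 proliferation markers, 6 were called higher on day 3, 5 on day 5 and 5 on day 7, with a median log2 change of 3.56, 2.26 and 2.23. Of 8 endothelial markers, 1 was called on day 3: KDR, a VEGF receptor, fell by 2.62 on the log2 scale (limma adjusted p = 0.0162). Of the 8 changes on day 3, 2 were above 0 and 6 below, with a median of -0.57. Their summed level was 75.2 to 84.4 on day 3, against 61.5 to 80.4 in control, with groups that overlapped. Of 9 fibroblast and leptomeningeal markers, LUM, a collagen-binding proteoglycan, was higher on day 3 (1.13, adjusted p = 0.0172) and on day 7 (1.02, adjusted p = 0.0491), and PTGDS, SLC22A6 and SLC22A8 were lower on day 3. The summed level of the 9 was 726 to 812 times the array's 75th percentile on day 3, against 1182 to 2365 in control. By gene, 4 changes were above 0 and 5 below on day 3, with a median of -0.21, so the sum follows its brightest genes. The contractile smooth muscle list had 1 call, MYL9, a myosin light chain, which was lower on day 3 (-0.64, adjusted p = 0.0451). Of 2 B cell markers, CD79B was higher on day 3 (1.80, adjusted p = 0.00708), and MS4A1 was not called (0.07, adjusted p = 0.891). None of the 3 erythroid markers was called on any day. Their summed level on day 3 was 63.1 to 353, against 101 to 162 in control, and 0 had an unadjusted p under 0.05. Every day 5 array (lowest sum 171) and every day 7 array (lowest sum 305) lay above all controls. The median log2 change was 0.97 for day 5 and 1.40 for day 7. An unadjusted p under 0.05 was reached by 0 of them on day 5 and by 2 on day 7.

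Some probes are described in words as members but carry no symbol, and were not counted. A probe described as ITGA9, a matrix-binding alpha chain, was lower on day 3 (-0.78, adjusted p = 0.0293). Of 5 such probes for COL2A1, the lowest changed by -1.19 on day 3 (adjusted p = 0.0124) and the highest by -0.04. A further 6 probes for COL10A1 were below background by the rule used. Just outside that rule, COL9A2 was well above background on 5 arrays but on no more than 2 of a group, and ITGB6 on 2 arrays.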
